A study of Mus musculus with 6 samples.

Results

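Mouse embryonic fibroblasts (MEFs) that had spent 4 h in 1 mM hydrogen peroxide (H2O2) were compared with untreated MEFs, with 2 Agilent one-colour arrays in each group. The 4 arrays were chosen by their labels from the 6 in the series. The other 2 hold MEFs after 2 h in the same dose and are used here to place the 4 h values in time. All the cells are primary cultures, grown from mouse embryos without immortalization and kept in DMEM with fetal calf serum, and H2O2 is the only agent the labels name. Strain, genotype and the number of embryos behind each culture are not given in the sources used here. The labels call the arrays of a group independent experiments without saying whether they came from separate cultures, so the p-values below measure the spread between these arrays, which may be partly technical. Untreated cells are labelled 0 h only, so the effect of H2O2 cannot be told apart from that of 4 h in culture and handling. Each of 2 slides carried 1 array of each time, always at the same position on the slide, so array position and time also cannot be told apart.

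H2O2 crosses membranes, oxidises cysteine thiols and, with iron, damages DNA. Cells meet it with several programmes. Oxidation of Keap1 releases Nrf2, which switches on genes for glutathione, thioredoxin and heme breakdown. DNA damage stabilises p53, which activates genes for cell cycle arrest and death. Heat shock factor 1 answers misfolded protein, and the MAP kinases switch on immediate early genes within minutes, whose mRNAs are short lived. Fibroblasts in culture divide, so a checkpoint arrest also shows in the mRNAs that peak in late cell cycle phases.

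The level of a gene is given as log2 of the spot signal minus log2 of the 75th percentile of its array, so that 0 stands for that percentile and a difference of 1 for 2-fold. A change is the 4 h mean minus the untreated mean of these levels, with its standard error (SE) from limma over all 6 arrays, n = 2 arrays a group. A gene rose or fell where limma's Benjamini-Hochberg adjusted p over all 17204 genes tested was under 0.05. Levels of different genes come from different probes and are not compared with each other. Within a group the 2 arrays correlated at r = 0.992 (untreated), 0.994 (2 h) and 0.994 (4 h) over the genes, between 57.3% and 68.0% of spots were well above background, and no spot was saturated. All 12 fibroblast markers, among them vimentin (Vim), Thy1 and Col1a1, were well above background on every array, and their signals summed to between 1173 and 1250 times the 75th percentile in untreated cells and 1393 to 1503 at 4 h. Endothelial markers, of which 3 of 7 tested rose, summed to 0.558 and 0.619 untreated and 1.06 and 1.09 at 4 h, with the defining gene Cdh5 not well above background on any array. Macrophage markers summed to 18.2 and 19.7 untreated and 20.6 and 22 at 4 h, where 3 of 7 rose, and epithelial markers to 3.13 and 3.48 untreated and 3.84 and 4.33 at 4 h, where 3 of 6 rose and Epcam was not well above background on any array. Their part in the results was not tested. In bulk RNA, fewer cells of a kind and less RNA per cell cannot be told apart.

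The X-inactivation RNA Xist set the untreated arrays apart from the other 4. It was well above background on both untreated arrays and not well above background on any of the 4 treated arrays, with levels of -1.47 and -2.02 on the untreated arrays, -7.24 and -6.18 at 2 h and -6.84 and -7.09 at 4 h. The 4 h level was at least 8.31-fold lower than the untreated level (adjusted p = 0.0015). Xist entered the test through the untreated arrays alone, so this adjusted p is not separate support for the fall. The Y-linked genes Ddx3y, Eif2s3y and Kdm5d were well above background on all 6 arrays, with Ddx3y at 0.73 and 0.75 on the untreated arrays, 1.05 and 1.07 at 2 h and 0.95 and 1.01 at 4 h. Kdm5d changed by -0.48 ± 0.08 (adjusted p = 0.0091) and Eif2s3y by 0.38 ± 0.09 (adjusted p = 0.029). The part of any difference in cell source between untreated and treated cultures in the results below was not tested.

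After 4 h, 4247 genes had risen (24.7% of those tested) and 3171 had fallen (18.4%). Rises were the larger changes: 1144 genes rose at least 2-fold (6.65%) and 457 fell by as much (2.66%), and changes of 4-fold or more numbered 532 up and 35 down. Not all of these were measured on both sides: 588 of the 1144 rises, and 147 of the 532, were well above background on both untreated arrays, and 288 of the 457 falls, and 7 of the 35, on both 4 h arrays. In each of the 4247 and the 3171 genes both 4 h arrays lay on the same side of both untreated arrays. Without untreated replicate 1, 2573 genes rose and 1840 fell, without untreated replicate 2, 2410 and 1922, without 4 h replicate 1, 2814 and 2280, and without 4 h replicate 2, 3055 and 2255. Of the 121 genes named below as past the test 22 lost it when 1 of the 6 arrays was left out: Ccnf, Cdk1, Ddb2, Ddx3y, Egr4, Eif2s3y, Fech, Fosb, Gclm, Hbegf, Herpud1, Hoxb9, Hspa5, Hspd1, Kdm5d, Lig4, Mt1, Nqo1, Psmd8, Sesn1, Sod1 and Trim13. The balance of rises and falls depended on how the arrays were put on 1 scale. Of the genes called, 57.3% rose with the 75th percentile, and 46.5% with quantile normalization, 33.9% with median centring, 24.5% without scaling, 22.5% with the spike-in RNAs, 63.9% with normexp background correction and the 75th percentile, and 45.4% with normexp and quantile normalization. Over all genes the median change was 0.07 with the 75th percentile, and ran from -0.22 with the spike-ins to 0.18 with normexp and the 75th percentile. These 6 alternatives turned the sign of 507 of the 4247 rises and 597 of the 3171 falls in at least 1 case, and of 1 of the 1144 rises and 164 of the 457 falls of at least 2-fold. A group of genes below is therefore read against the median of 0.07 over all genes tested, and where its median is given, any of the 6 alternatives that turned it is named.

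**Figure D1:**
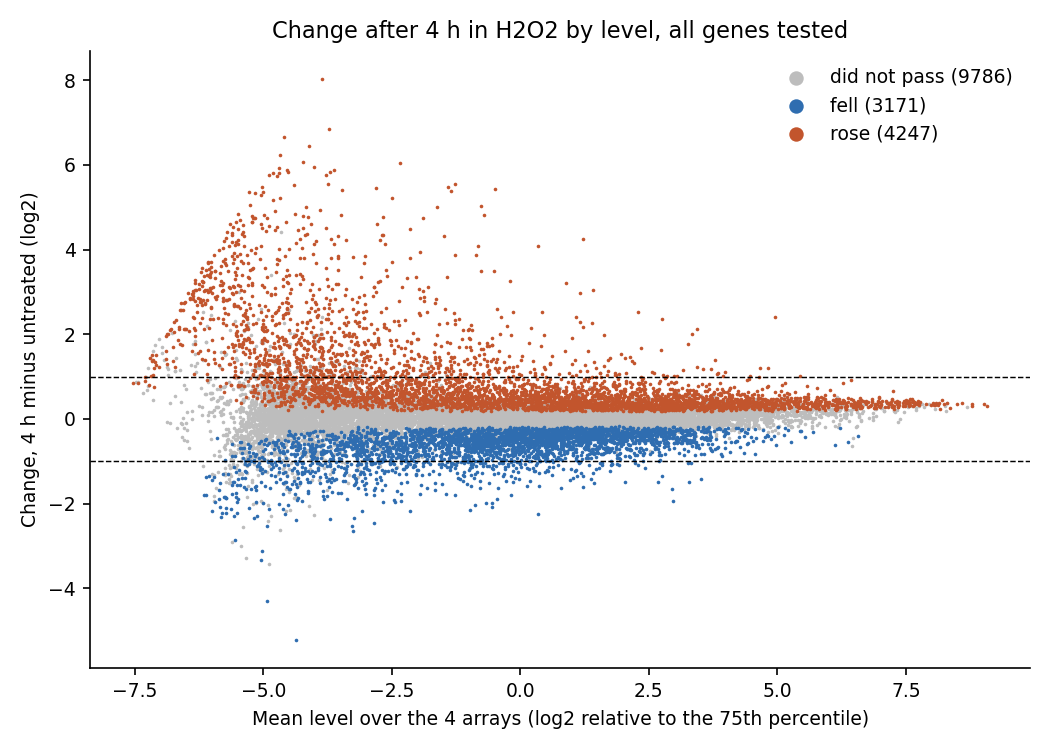
Change at 4 h (log2, 4 h minus untreated, vertical axis) of each of the 17204 genes tested against its mean level over the 4 arrays compared (log2 relative to the 75th percentile of the array, horizontal axis). The 4247 genes that rose and the 3171 that fell are coloured, grey points did not pass the adjusted p threshold of 0.05, and dashed lines mark 2-fold. Rises reach further from 0 than falls.

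Targets of p53 rose as a group. Of 41 tested, 30 rose and 4 fell, 18 of them rising at least 2-fold, and the median change was 0.92, with 0.63 to 0.87 under the 6 other scalings. The mRNA of p53 itself (Trp53) changed by 0.00 ± 0.13 (adjusted p = 0.995). Among the genes for feedback and arrest, 15 of 18 rose. Mdm2, whose product ubiquitinates p53 and so limits it, stood at 1.51 and 1.64 on the untreated arrays, 3.89 and 4.05 at 2 h and 3.90 and 3.96 at 4 h. It changed by 2.36 ± 0.09 (adjusted p = 0.00032), the untreated and treated arrays lying far apart and the 2 h and 4 h arrays overlapping. Cdkn1a, which encodes the cyclin-dependent kinase inhibitor p21, stood at 2.44 and 2.31 on the untreated arrays, 4.03 and 4.12 at 2 h and 4.61 and 4.39 at 4 h, a change of 2.12 ± 0.10 (adjusted p = 0.00052). The p53-induced phosphatase gene Ppm1d changed by 1.36 ± 0.10 (adjusted p = 0.0013) and cyclin G1 (Ccng1) by 1.05 ± 0.05 (adjusted p = 0.00062). Trp53inp1, a p53-induced nuclear protein, stood at 2.30 and 2.36 on the untreated arrays, 3.45 and 3.37 at 2 h and 4.27 and 4.39 at 4 h. Its levels stepped up at each time with no overlap, and its change at 4 h was 2.00 ± 0.07 (adjusted p = 0.0003).

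Among death genes of the p53 list, 9 of 11 rose. Pmaip1, which encodes the BH3-only protein Noxa, had levels of 1.01 and 1.03 on the untreated arrays, 2.94 and 2.99 at 2 h and 3.54 and 3.57 at 4 h and changed by 2.54 ± 0.06 (adjusted p = 0.00014). The death receptor gene Fas stood at 0.40 and 0.33 on the untreated arrays, 0.82 and 0.80 at 2 h and 1.77 and 1.75 at 4 h, a change of 1.40 ± 0.06 (adjusted p = 0.00038), of which 0.95 ± 0.06 (adjusted p = 0.0021) came between 2 h and 4 h. Bbc3, which encodes Puma, changed by 1.17 ± 0.08 (adjusted p = 0.0011) and was level between the treated times, at -0.09 ± 0.08 (adjusted p = 0.47). Bax, the pore-forming effector, did not pass, at 0.22 ± 0.07 (adjusted p = 0.066), and passed when slide was a block (adjusted p = 0.021). In the role of repair and metabolism 6 of 12 rose and 2 fell. The fallers were Ddb2, which recognises ultraviolet lesions, at -0.79 ± 0.14 (adjusted p = 0.013), and Tigar, a fructose bisphosphatase, at -1.17 ± 0.18 (adjusted p = 0.0091), the latter turning sign under 1 of the 6 scalings. The fall among arrest genes was sestrin 1 (Sesn1), at -0.44 ± 0.10 (adjusted p = 0.023), while its relative Sesn2 changed by 1.00 ± 0.06 (adjusted p = 0.00087). Gdf15, a secreted stress cytokine of the TGF-beta family, showed the largest rise of the list. Its levels were -0.04 and -0.16 on the untreated arrays, 2.82 and 2.74 at 2 h and 3.05 and 2.85 at 4 h, and it changed by 3.05 ± 0.10 (adjusted p = 0.00025).

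**Figure D2:**
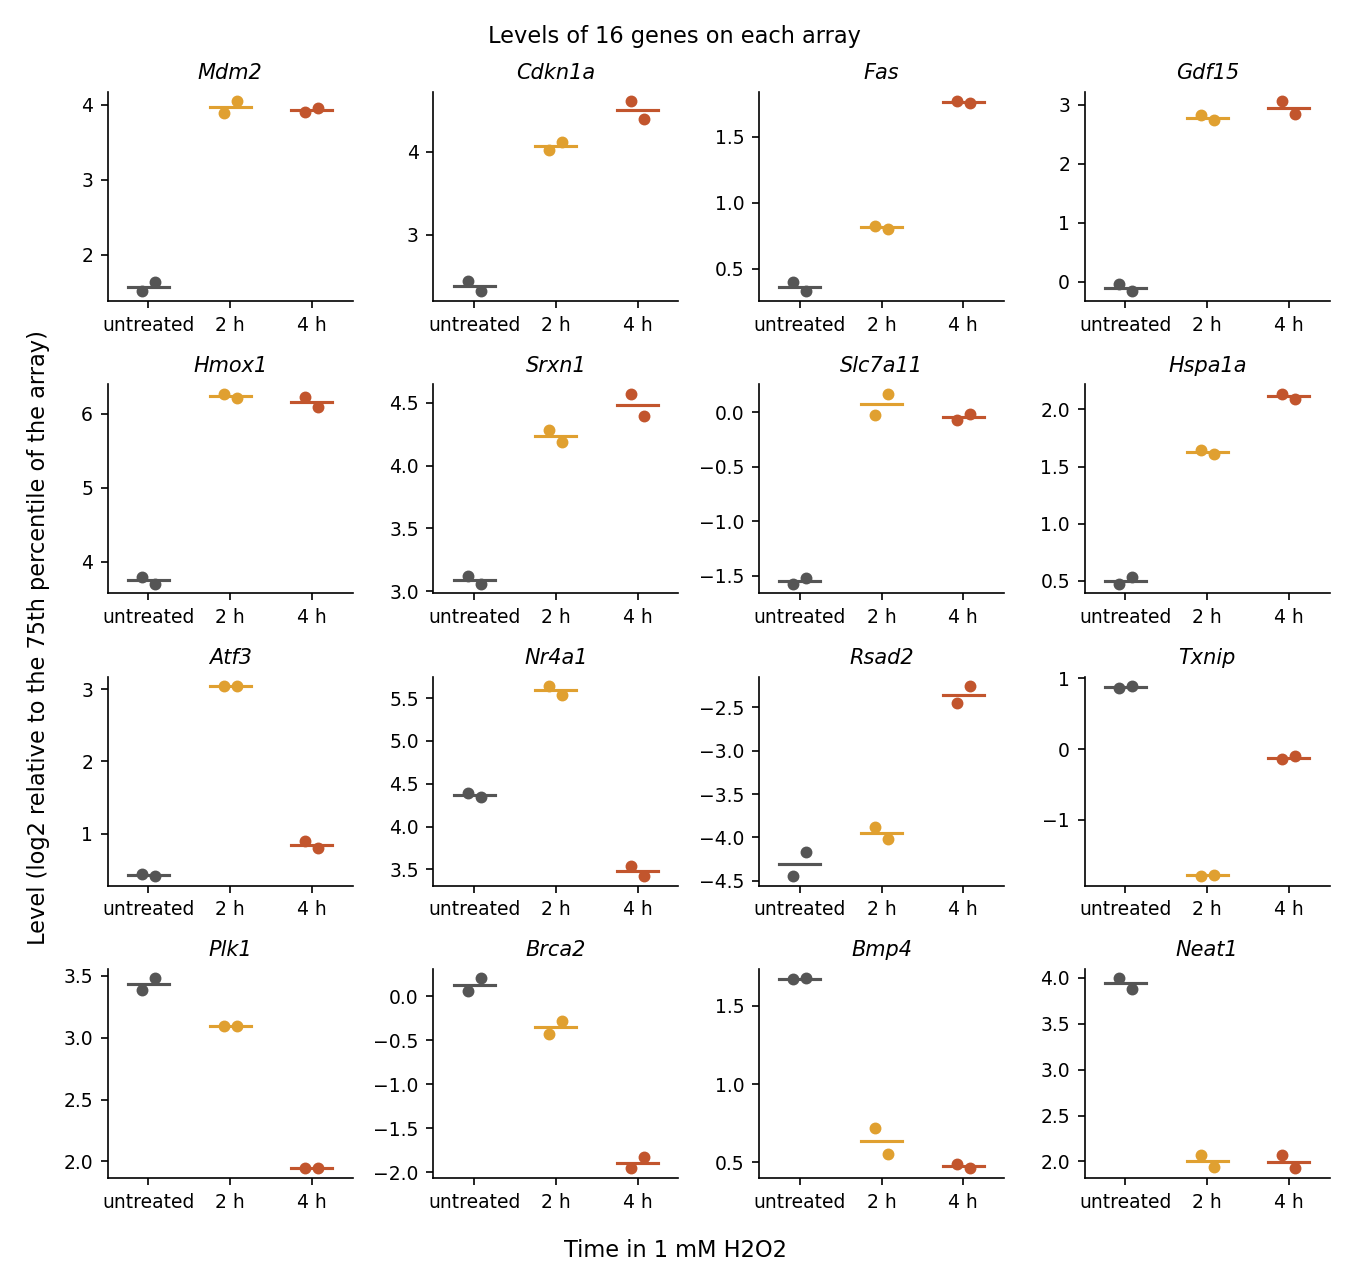
Level (log2 relative to the 75th percentile of the array, vertical axis, scaled for each gene) of 16 genes on each of the 6 arrays, grouped as untreated, 2 h and 4 h in H2O2 (horizontal axis). Each point is 1 array and each short line the mean of the 2 arrays of a group. Mdm2 and Hmox1 sit at 1 height at both treated times, Fas and Rsad2 are highest at 4 h, Atf3 peaks at 2 h, Txnip dips at 2 h, and Plk1 is lowest at 4 h.

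The promoters of the p53 targets were searched for the p53 motif, the run of purines, core and pyrimidines that p53 dimers bind, in the window from 250 bases before to 50 after each RefSeq start (GRCm38.p6, both strands). Of 33 tested genes with a promoter entry, 13 held a match (39.4%), as did 9.55% of all 27025 genes with one. Among the 25 of these targets that rose, 9 held a match (36.0%), so the share was not higher in the risers. A match is a description of letters and not a measured site. The stretches of 3 risers of the arrest and feedback group are shown, with matches in capitals. They were chosen for a match upstream of the outermost RefSeq start, out of Mdm2, Cdkn1a, Ppm1d and Ccng1, and Ccng1 gave none. The stretches are Mdm2 at chr10:117710895-117710984 (minus strand), Cdkn1a at chr17:29090866-29090977 (plus strand, 2 matches) and Ppm1d at chr11:85311082-85311171 (plus strand), each written 5′ to 3′ towards its gene.
Mdm2: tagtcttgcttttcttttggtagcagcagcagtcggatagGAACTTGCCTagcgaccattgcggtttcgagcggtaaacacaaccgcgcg
Cdkn1a: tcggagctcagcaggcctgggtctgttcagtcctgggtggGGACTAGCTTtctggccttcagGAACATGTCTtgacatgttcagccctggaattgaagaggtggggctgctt
Ppm1d: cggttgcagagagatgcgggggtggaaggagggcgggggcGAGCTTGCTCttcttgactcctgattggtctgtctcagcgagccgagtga

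Nrf2 targets rose as well. Of 38 tested, 29 rose and 2 fell, with a median change of 0.47 and 0.18 to 0.42 under the other scalings. The mRNA of Nrf2 (Nfe2l2) changed by 0.77 ± 0.05 (adjusted p = 0.0011) and that of its inhibitor Keap1 by -0.14 ± 0.10 (adjusted p = 0.34). All 5 thioredoxin genes and 12 of 15 glutathione genes rose. Hmox1, the heme oxygenase that breaks heme into biliverdin, iron and carbon monoxide, stood at 3.80 and 3.70 on the untreated arrays, 6.27 and 6.20 at 2 h and 6.23 and 6.09 at 4 h. It changed by 2.41 ± 0.08 (adjusted p = 0.00027), and its 2 h and 4 h values overlapped. Srxn1, sulfiredoxin, which reduces overoxidised peroxiredoxins, stood at 3.12 and 3.06 on the untreated arrays, 4.28 and 4.19 at 2 h and 4.57 and 4.40 at 4 h, a change of 1.40 ± 0.08 (adjusted p = 0.00084). Slc7a11, the cystine importer that feeds glutathione synthesis, changed by 1.5 ± 0.08 (adjusted p = 0.00071), with 0.42 and 0.96 on its other probes and no pass for their mean (adjusted p = 0.055), and the 2 subunits of glutamate-cysteine ligase, Gclc and Gclm, by 0.70 ± 0.05 and 0.65 ± 0.14 (adjusted p = 0.0015 and 0.021). Thioredoxin reductase 1 (Txnrd1) changed by 0.86 ± 0.08 (adjusted p = 0.0021) and the quinone reductase Nqo1 by 0.37 ± 0.06 (adjusted p = 0.0085). Against 2 h, 5 of the 38 were higher at 4 h, 1 of them at least 2-fold, and 2 were lower. Of all genes tested 13.4% were higher than at 2 h and 16.5% lower. Osgin1, an oxidative stress induced growth inhibitor, was among the 5, with levels of -1.18 and -1.34 on the untreated arrays, -0.61 and -0.71 at 2 h and 0.20 and 0.02 at 4 h and a change from 2 h to 4 h of 0.77 ± 0.10 (adjusted p = 0.008). Its probes disagreed in size, from 0.50 to 1.37 for the change at 4 h. The 2 that fell were the exporter Abcc4 (-0.63 ± 0.05 (adjusted p = 0.0017)) and ferrochelatase, Fech (-0.40 ± 0.07 (adjusted p = 0.013)).

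Antioxidant genes outside the Nrf2 list were divided by role. Of 13 for the removal of superoxide and peroxide 6 rose and 0 fell, with a median of 0.25 that turned to -0.013 without scaling and -0.042 with spike-in scaling. Of 15 thioredoxin and glutaredoxin genes 4 rose and 3 fell, with a median of 0.19 that turned to -0.07 and -0.10. Catalase (Cat), which splits H2O2, changed by 0.22 ± 0.09 (adjusted p = 0.12) and did not pass (blocked by slide, adjusted p = 0.032), and Cu/Zn superoxide dismutase (Sod1) changed by 0.38 ± 0.09 (adjusted p = 0.03). The antioxidant response element, searched as TGACNNNGC or its complement GCNNNGTCA, was found in 11 of 31 Nrf2 target promoters (35.5%) and 14.0% of all. Among the 23 of these targets that rose, 8 held it (34.8%), so the share was not higher in the risers. Of Prdx1, Txnrd1, Gclm and Gsta3, looked up for a stretch to show, Prdx1 alone gave a match upstream of its outermost start. The stretch of peroxiredoxin 1 (Prdx1), a peroxidase of the Nrf2 list that changed by 0.51 ± 0.06 (adjusted p = 0.0035), is shown with its match in capitals, from chr4:116685426-116685514 (plus strand).
Prdx1: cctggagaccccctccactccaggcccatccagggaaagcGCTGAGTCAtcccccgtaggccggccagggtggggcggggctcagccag

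**Figure D3:**
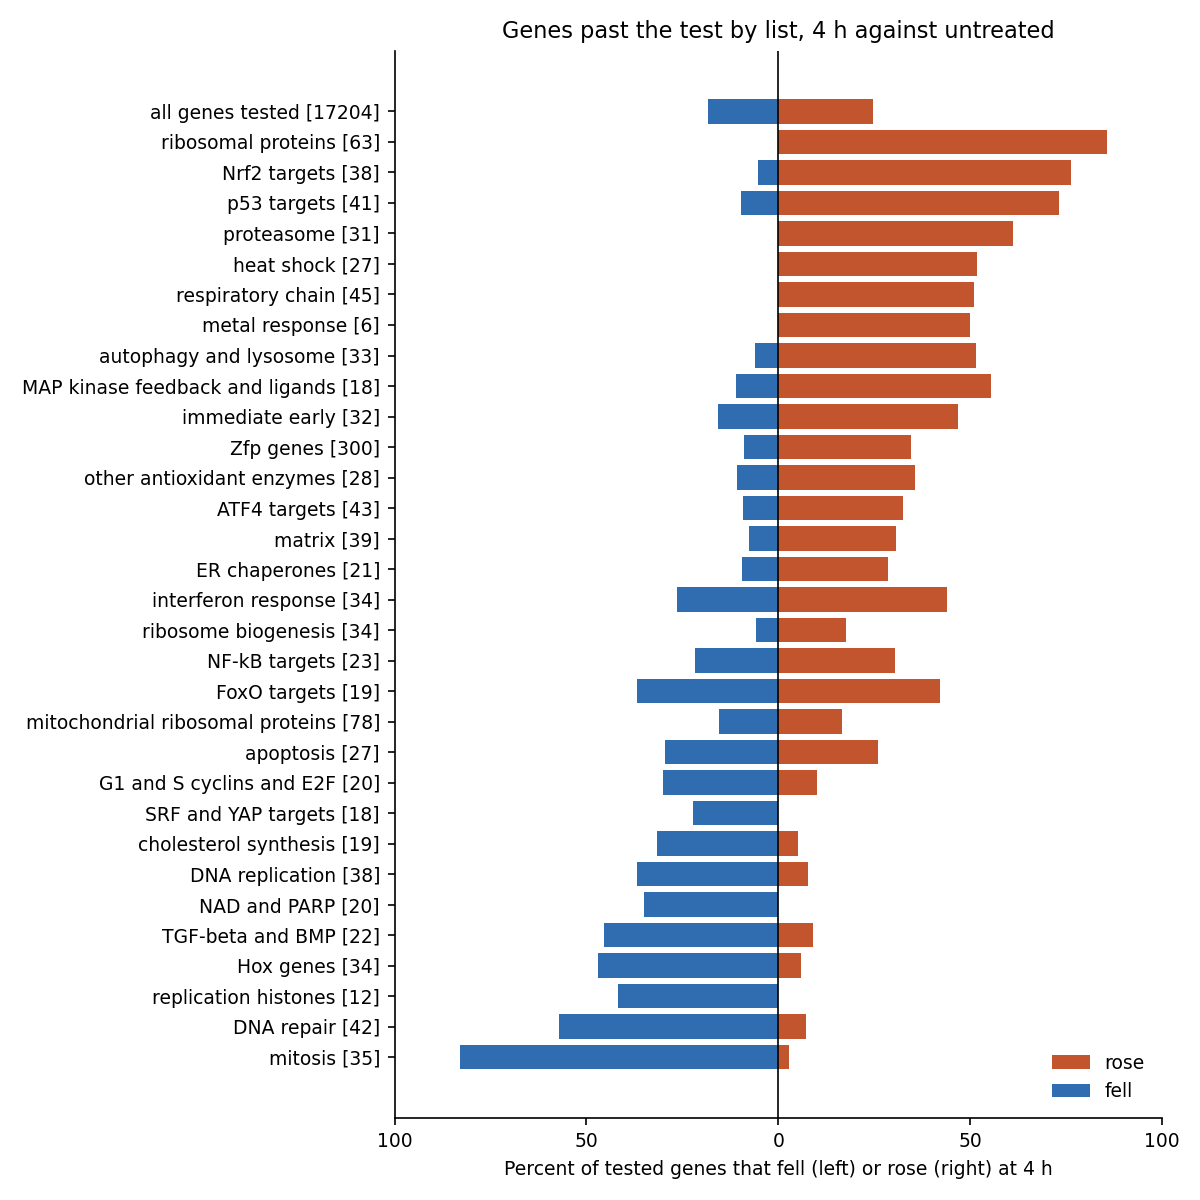
Percent of the tested genes of each list that rose (right of 0) and fell (left of 0) at 4 h, with the number tested in brackets and all 17204 genes tested at the top (24.7% rose and 18.4% fell). Ribosomal proteins, Nrf2 targets and p53 targets have the largest rising shares, and mitosis and DNA repair the largest falling shares.

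Heat shock genes rose with the inducible HSP70 in front. Of 27 tested, 14 rose and 0 fell, and the median of 0.25 turned to -0.01 without scaling and -0.04 with spike-in scaling. Hspa1a, the inducible HSP70, stood at 0.47 and 0.53 on the untreated arrays, 1.64 and 1.61 at 2 h and 2.14 and 2.09 at 4 h. It changed by 1.61 ± 0.06 (adjusted p = 0.0003), rose again from 2 h to 4 h by 0.49 ± 0.06 (adjusted p = 0.0064), and its other probes gave 1.15 to 1.77. The small heat shock protein gene Hspb8 changed by 0.97 ± 0.06 (adjusted p = 0.001) and its co-chaperone Bag3 by 0.58 ± 0.08 (adjusted p = 0.0058). Mitochondrial chaperonins Hspe1 and Hspd1, which are transcribed head to head, changed by 0.44 ± 0.05 and 0.39 ± 0.07 (adjusted p = 0.0046 and 0.014), and the HSP110 gene Hsph1 by 0.00 ± 0.06 (adjusted p = 0.96). The heat shock element, searched as GAANNTTC or TTCNNGAA, lay in 12 of 23 promoters of the list (52.2%) and 17.0% of all. Among the 11 of these genes that rose, 7 held it (63.6%). The stretches of Hspa1a (chr17:34972213-34972300, minus strand) and Hspe1 (chr1:55088019-55088116, plus strand) are shown to set a lone match beside 3 overlapping ones, in capitals.
Hspa1a: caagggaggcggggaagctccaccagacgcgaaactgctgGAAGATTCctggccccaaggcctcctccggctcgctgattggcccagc
Hspe1: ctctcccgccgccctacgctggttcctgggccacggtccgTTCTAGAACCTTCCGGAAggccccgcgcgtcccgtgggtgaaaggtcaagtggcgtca

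Metallothioneins, which bind zinc and scavenge oxidants, rose moderately. Mt2 stood at 5.71 and 5.59 on the untreated arrays, 6.10 and 6.06 at 2 h and 6.31 and 6.13 at 4 h and changed by 0.57 ± 0.09 (adjusted p = 0.0086), Mt1 changed by 0.50 ± 0.14 (adjusted p = 0.041), and 3 of 6 metal response genes rose. The metal response element, searched as TGCNCNC or GNGNGCA, is common in these windows: all 6 genes held it, as did 53.6% of all genes. The Mt2 window from chr8:94172368-94172614 (plus strand) is shown because it holds 5 matches, in capitals.
Mt2: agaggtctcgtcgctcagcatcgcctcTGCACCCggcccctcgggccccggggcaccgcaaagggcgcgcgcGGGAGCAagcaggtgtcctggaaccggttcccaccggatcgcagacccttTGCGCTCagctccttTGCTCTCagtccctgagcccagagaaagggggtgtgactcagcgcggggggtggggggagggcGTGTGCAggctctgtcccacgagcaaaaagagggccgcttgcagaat

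The unfolded protein and amino acid stress programmes were mixed. Of 43 ATF4 targets 14 rose and 4 fell, and their median of 0.10 was below 0 under all 6 other scalings (-0.19 to -0.04). Chac1, a glutathione-degrading enzyme, stood at 3.48 and 3.51 on the untreated arrays, 2.23 and 2.20 at 2 h and 2.73 and 2.64 at 4 h. It fell at both times and less at 4 h, the change at 4 h being -0.81 ± 0.06 (adjusted p = 0.0014). Trib3, a pseudokinase, changed by -0.58 ± 0.07 (adjusted p = 0.0038), and Ddit3, which encodes the death-associated factor CHOP, by -0.08 ± 0.10 (adjusted p = 0.56). Cebpb, a bZIP factor, rose, at 0.76 ± 0.11 (adjusted p = 0.0078). Of 21 ER chaperone genes 6 rose and 2 fell. Their median of 0.13 turned to between -0.15 and -0.02 with quantile normalization, median centring, no scaling and spike-in scaling. BiP (Hspa5) was at 0.32 ± 0.05 (adjusted p = 0.0093) and Herpud1, of the ER degradation pathway, at -0.43 ± 0.09 (adjusted p = 0.021). The CRE (TGACGTCA) lay in 1 of 35 ATF4 target promoters (2.86%) and 2.03% of all. Among the 11 of these targets that rose, 1 held it (9.09%).

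Immediate early genes were past their height. The 2 h and 4 h changes share the untreated arrays, so the direct test of 4 h against 2 h is given beside them. In that test 2305 of all genes tested were higher at 4 h (13.4%) and 2838 lower (16.5%), and these were 1315 and 1044 without 2 h replicate 1, 1371 and 1084 without 2 h replicate 2, 1644 and 1587 without 4 h replicate 1, and 1577 and 1319 without 4 h replicate 2. Among 32 immediate early genes 15 were above untreated at 4 h and 5 below, while 15 were lower than at 2 h and 4 higher. Their median change was 0.62 at 2 h and 0.28 at 4 h, the latter -0.01 with spike-in scaling. The stress factor gene Atf3 stood at 0.45 and 0.41 on the untreated arrays, 3.04 and 3.04 at 2 h and 0.89 and 0.80 at 4 h. It had risen by 2.61 at 2 h, and 4 h differed from 2 h by -2.19 ± 0.06 (adjusted p = 0.0017), leaving 0.42 ± 0.06 (adjusted p = 0.0072) over untreated cells. Fosb, an AP-1 subunit, had a like course, with 3.17 at 2 h and 1.01 ± 0.22 at 4 h (adjusted p = 0.023).

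Other early genes kept rising, stayed above their untreated level, did not pass against it or went below it. Fosl1, which encodes the late AP-1 subunit Fra-1, stood at -0.50 and -0.41 on the untreated arrays, 0.77 and 0.86 at 2 h and 1.20 and 1.35 at 4 h, highest at 4 h, and the step from 2 h was 0.46 ± 0.08 (adjusted p = 0.017). Fos itself was at 0.93 ± 0.09 (adjusted p = 0.0025) over untreated cells, Junb at 0.91 ± 0.06 (adjusted p = 0.0011) and Jun at -0.10 ± 0.06 (adjusted p = 0.22). Both Junb and Jun were lower than at 2 h, with differences of -0.42 and -0.72 (adjusted p = 0.011 and 0.003). The orphan nuclear receptor Nr4a1 stood at 4.40 and 4.34 on the untreated arrays, 5.64 and 5.54 at 2 h and 3.54 and 3.42 at 4 h. It was above untreated cells at 2 h and below them at 4 h, by -0.89 ± 0.07 (adjusted p = 0.0018), a swing of -2.11 ± 0.07 (adjusted p = 0.0017). Egr4 had a swing of -2.89 ± 0.08 (adjusted p = 0.0017) and ended at -0.39 ± 0.08 (adjusted p = 0.018) against untreated cells, a fall that turned sign under 1 of the 6 scalings. Egr1 remained up at 0.50 ± 0.06 (adjusted p = 0.0037), and Myc did not pass, at 0.13 ± 0.08 (adjusted p = 0.24). The serum response element, searched by its consensus on both strands, lay in 3 of 24 immediate early promoters (12.5%) and 1.81% of all. Among the 12 of these genes that rose, 1 held it (8.33%).

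Feedback inhibitors and ligands of the MAP kinase pathway followed the same course. Of 18 tested, 10 were above untreated cells at 4 h and 2 below, with a median of 0.63 after 1.18 at 2 h, and 9 were lower than at 2 h. The MAP kinase phosphatases Dusp1, Dusp4 and Dusp6 changed by 0.76 ± 0.07, 0.83 ± 0.10 and 0.60 ± 0.08 (adjusted p = 0.0021, 0.0045 and 0.005), and each was lower than at 2 h. Among EGF receptor ligands, Hbegf fell back from 1.36 at 2 h to 0.21 ± 0.06 (adjusted p = 0.042), which turned sign under 2 scalings, whereas Ereg held at 1.86 ± 0.11 (adjusted p = 0.00086). Spry1, the Sprouty inhibitor of receptor tyrosine kinase signalling, went the other way. Its levels were 3.06 and 2.97 on the untreated arrays, 0.74 and 0.74 at 2 h and 1.85 and 1.87 at 4 h, so that it was lowest at 2 h and still -1.16 ± 0.06 (adjusted p = 0.00059) at 4 h.

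**Figure D4:**
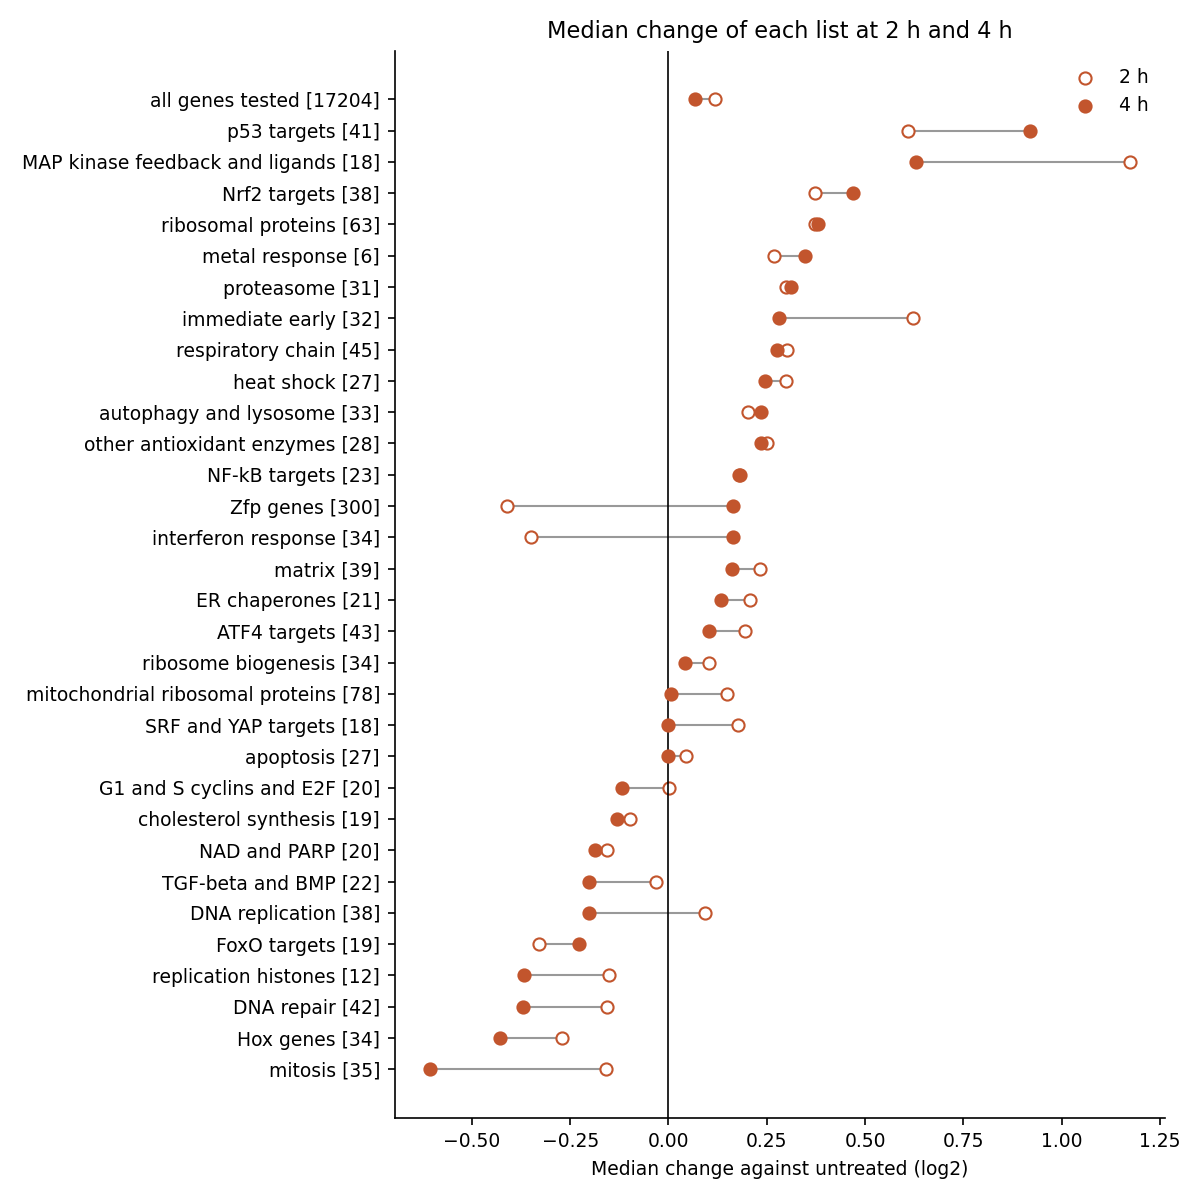
Median change (log2, horizontal axis) of each gene list against untreated cells at 2 h (open circle) and 4 h (filled circle), with the number of genes tested in brackets; both changes share the untreated arrays. The MAP kinase feedback list moves from 1.18 to 0.63 and the immediate early list from 0.62 to 0.28, mitosis falls further at 4 h, and the Zfp genes cross from -0.41 to 0.16.

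Interferon response genes and some NF-kB targets were higher at 4 h than at 2 h, many of the interferon genes coming from below their untreated level. Of 34 interferon response genes tested 15 rose and 9 fell against untreated cells, with a median of 0.16 that turned to -0.01 with median centring, -0.10 without scaling and -0.12 with spike-in scaling. At 2 h 2 of the 34 had been above and 16 below untreated cells, with a median of -0.35, and against 2 h 17 were higher at 4 h and 0 lower. Rsad2, which encodes the antiviral enzyme viperin, stood at -4.45 and -4.16 on the untreated arrays, -3.88 and -4.02 at 2 h and -2.45 and -2.26 at 4 h. Its change was 1.95 ± 0.13 (adjusted p = 0.0011), of which 1.59 ± 0.13 (adjusted p = 0.0033) came after 2 h. The antiviral GTPase gene Mx2 changed by 1.36 ± 0.10 (adjusted p = 0.0013) and the chemokine gene Cxcl10 by 1.35 ± 0.08 (adjusted p = 0.00089), with steps after 2 h of 1.63 and 1.03. Isg20, a 3′ exonuclease, was already high at 2 h, with levels of -1.71 and -1.69 on the untreated arrays, 2.03 and 2.01 at 2 h and 2.48 and 2.27 at 4 h and a change of 4.07 ± 0.08 (adjusted p = 0.00013). Of 9 signalling genes 4 fell and 3 rose, among them the receptor Ifngr1 at -0.56 ± 0.07 (adjusted p = 0.0041).

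Of 23 NF-kB targets 7 rose and 5 fell, with a median of 0.18 that was -0.08 without scaling and -0.11 with spike-in scaling, and 9 were higher than at 2 h. The adhesion receptor gene Icam1 stood at 1.15 and 1.12 on the untreated arrays, 1.46 and 1.49 at 2 h and 2.35 and 2.19 at 4 h, a change of 1.14 ± 0.07 (adjusted p = 0.001). The inhibitor gene Nfkbia, a feedback target, changed by 0.55 ± 0.07 (adjusted p = 0.006), and Vcam1 by -0.68 ± 0.06 (adjusted p = 0.0021), although another Vcam1 probe gave 0.10. Il6 did not pass, at 0.01 ± 0.06 (adjusted p = 0.91).

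Genes of mitosis fell together. Of 35 tested, 29 fell and 1 rose, with a median of -0.61 and -0.90 to -0.55 under the other scalings. Against 2 h 29 were lower and 1 higher. Plk1, the polo kinase that drives mitotic entry and exit, stood at 3.38 and 3.48 on the untreated arrays, 3.09 and 3.09 at 2 h and 1.94 and 1.94 at 4 h. It changed by -1.48 ± 0.06 (adjusted p = 0.00038), most of it after 2 h (-1.15 ± 0.06 (adjusted p = 0.0018)). Mki67, the proliferation marker Ki-67, stood at 4.24 and 4.19 on the untreated arrays, 3.69 and 3.68 at 2 h and 2.84 and 2.77 at 4 h and changed by -1.41 ± 0.06 (adjusted p = 0.0004). Aurora kinase A (Aurka) changed by -1.05 ± 0.05 (adjusted p = 0.00061), cyclin B1 (Ccnb1) by -0.55 ± 0.08 (adjusted p = 0.0073), and the kinase it binds, Cdk1, by -0.40 ± 0.07 (adjusted p = 0.013). The member that rose was cyclin F (Ccnf), an F-box protein, at 0.34 ± 0.08 (adjusted p = 0.033), after -0.74 at 2 h.

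Some DNA replication genes fell too. Of 38 tested 14 fell and 3 rose, with a median of -0.20, and polymerase and clamp genes made up 9 of the falls. The catalytic subunit of polymerase delta, Pold1, stood at 2.73 and 2.65 on the untreated arrays and 1.92 and 1.77 at 4 h and changed by -0.84 ± 0.09 (adjusted p = 0.0034). The sliding clamp gene Pcna, also a p53 target, did not pass, at -0.02 ± 0.06 (adjusted p = 0.84). The licensing factor Cdt1 rose, at 0.65 ± 0.06 (adjusted p = 0.0026), and its inhibitor geminin (Gmnn) fell, at -0.76 ± 0.06 (adjusted p = 0.0016). Among G1 and S phase cyclins and E2F genes 6 of 20 fell and 2 rose, the median of -0.12 turning to 0.03 with normexp and the 75th percentile, with cyclin A2 (Ccna2) at -0.75 ± 0.06 (adjusted p = 0.0014) and cyclin E1 (Ccne1) at -0.56 ± 0.05 (adjusted p = 0.0022). Of 12 replication-dependent histone genes 5 fell and 0 rose, the linker histone H1f5 standing at 0.07 and -0.17 on the untreated arrays, -1.01 and -1.26 at 2 h and -1.49 and -1.54 at 4 h, a change of -1.47 ± 0.13 (adjusted p = 0.0019).

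DNA repair genes fell. Of 42 tested 24 fell and 3 rose, with a median of -0.37 that stayed below 0 under the 6 other scalings (-0.66 to -0.21). Double strand break repair gave 12 falls of 19. Brca2, a gene of homologous recombination, stood at 0.06 and 0.20 on the untreated arrays, -0.43 and -0.28 at 2 h and -1.96 and -1.83 at 4 h. It changed by -2.03 ± 0.09 (adjusted p = 0.00051), with -1.54 ± 0.09 (adjusted p = 0.0022) after 2 h, and no array of 1 time overlapped another time. Brca1 changed by -1.06 ± 0.06 (adjusted p = 0.00063) and Rad54l, a helicase-like gene, by -1.59 ± 0.07 (adjusted p = 0.00045). Among the excision and mismatch repair genes of the list the largest fall was in Neil3, a glycosylase for oxidised bases, at -1.94 ± 0.07 (adjusted p = 0.00029). The 3 risers were DNA polymerase beta (Polb) of base excision repair at 0.56 ± 0.06 (adjusted p = 0.0032), the mismatch binder Msh6 at 0.74 ± 0.09 (adjusted p = 0.0052) and DNA ligase 4 (Lig4) of end joining at 0.32 ± 0.06 (adjusted p = 0.015). The enzymes of NAD and poly(ADP-ribose) metabolism, which use and rebuild NAD after DNA breaks, gave 7 falls and 0 rises among 20, led by Parp2 at -0.69 ± 0.06 (adjusted p = 0.002).

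Genes of the growth machinery rose in small steps, as did brightly expressed genes at large. Of 63 cytosolic ribosomal protein genes 54 rose and 0 fell, the median being 0.38 and 0.08 to 0.25 under the other scalings. Rps15a, of the small subunit, stood at 6.77 and 6.66 on the untreated arrays, 7.08 and 7.10 at 2 h and 7.22 and 7.25 at 4 h and changed by 0.52 ± 0.06 (adjusted p = 0.0045). The treated arrays lay above the untreated ones at both times and 4 h did not pass against 2 h. Level moves with this result: of 56 ribosomal protein genes at a mean level of 6 or more over the 6 arrays 85.7% rose, with a median of 0.38, and of 248 other genes at that level 53.6% rose, with a median of 0.30. With quantile normalization, which removes such a trend, these medians were 0.08 and 0.00. The part of signal level in the rises of this paragraph was not tested otherwise. Ribosomal protein genes have many processed copies in the genome, so their probes can share signal between copies. Mitochondrial ribosomal protein genes did not share the direction, with 13 up and 12 down of 78, and nor did ribosome biogenesis factors, with 6 up and 2 down of 34. Their medians, 0.0075 and 0.04, went below 0 under all 6 other scalings. Proteasome genes gave 19 rises and 0 falls of 31, with a median of 0.31 and the lid subunit Psmd8 at 0.58 ± 0.12 (adjusted p = 0.021). Nuclear genes of the respiratory chain gave 23 rises and 0 falls of 45, with a median of 0.28 that was -0.01 with spike-in scaling. Autophagy and lysosome genes gave 17 rises and 2 falls of 33, with a median of 0.24 that turned to -0.025 without scaling and -0.053 with spike-in scaling. Of these, the cargo receptor gene Sqstm1, also an Nrf2 target, changed by 0.84 ± 0.10 (adjusted p = 0.0049), and Gabarapl1, of the Atg8 family, by 1.02 ± 0.05 (adjusted p = 0.00064).

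Apoptosis genes were divided, 7 rising and 8 falling of 27, the rising share being near the 24.7% of all genes tested. Of all genes tested 18.4% fell. The survival gene Bcl2 stood at 0.72 and 0.67 on the untreated arrays, 1.02 and 0.86 at 2 h and -0.15 and -0.44 at 4 h. The 2 h levels lay above the untreated ones, by 0.25 in the mean, which is not read here as a rise. At 4 h Bcl2 had fallen below untreated cells, with a change of -0.99 ± 0.12 (adjusted p = 0.0046). Apaf1, the scaffold of the apoptosome, changed by 0.82 ± 0.07 (adjusted p = 0.0021). FoxO targets were divided too, 8 rising and 7 falling of 19. Txnip, the arrestin-like inhibitor of thioredoxin and of glucose uptake, was among the fallers, with levels of 0.86 and 0.89 on the untreated arrays, -1.79 and -1.77 at 2 h and -0.15 and -0.09 at 4 h. It was lowest at 2 h and had come back part of the way at 4 h, by 1.66 ± 0.05 (adjusted p = 0.0017), leaving -0.99 ± 0.05 (adjusted p = 0.00067) against untreated cells, with -1.38 on another probe and no pass for the mean of both (adjusted p = 0.061). Matrix genes gave 12 rises and 3 falls of 39, with a median of 0.16 that was below 0 under all of the 6 scalings other than normexp with the 75th percentile. The aggrecanase gene Adamts5 changed by -0.98 ± 0.08 (adjusted p = 0.0018). Cholesterol synthesis genes gave 6 falls of 19, with squalene epoxidase (Sqle) at -0.38 ± 0.05 (adjusted p = 0.0067), and 1 rise.

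Developmental signalling genes fell. Of 22 TGF-beta and BMP genes 10 fell and 2 rose, with a median of -0.20 and no scaling that turned it. Bmp4, a ligand, stood at 1.67 and 1.68 on the untreated arrays, 0.72 and 0.55 at 2 h and 0.49 and 0.46 at 4 h and changed by -1.20 ± 0.08 (adjusted p = 0.00094). The inhibitory Smad gene Smad6 changed by -1.23 ± 0.11 (adjusted p = 0.002), the pseudoreceptor gene Bambi by -0.86 ± 0.06 (adjusted p = 0.0011), and Id4, a target of BMP signalling, by -1.07 ± 0.06 (adjusted p = 0.00076) after -1.86 at 2 h. Hox genes, the transcription factors that hold positional identity in fibroblasts, gave 16 falls and 2 rises of 34, with a median of -0.43 that turned to 0.12 with normexp and the 75th percentile. Hoxa10 stood at 0.82 and 0.90 on the untreated arrays, -0.09 and 0.12 at 2 h and -0.29 and -0.20 at 4 h and changed by -1.10 ± 0.09 (adjusted p = 0.0019), and Hoxb9 rose, at 0.39 ± 0.07 (adjusted p = 0.013). Ankrd1, a target of YAP and SRF in mechanically active fibroblasts, changed by -1.47 ± 0.05 (adjusted p = 0.0003). The list of such targets did not fall as a group. Of its 18 genes 4 fell, near the 18.4% of all genes tested that fell, and 0 rose. Its median change was -0.0002, and -0.29 to -0.13 under the 6 other scalings.

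Among genes with a symbol and well above background on all 4 arrays compared, those with the largest rises were dim in untreated MEFs. Slc5a2, the sodium-glucose transporter of the kidney tubule, stood at -5.17 and -5.56 on the untreated arrays, 1.21 and 1.12 at 2 h and 0.75 and 0.63 at 4 h. It changed by 6.06 ± 0.15 (adjusted p = 0.00016), and the treated arrays lay far above the untreated ones, with 4 h not past the test against 2 h (-0.47 ± 0.15 (adjusted p = 0.073)). The untreated levels of Slc5a2 lay close to the dimmest signal well above background on those arrays, so the size of its rise rests on values near that limit. Next came Lman1l (5.54), the collagen gene Col20a1 (5.49), granzyme M (Gzmm, 5.39), the anti-Müllerian hormone receptor Amhr2 (5.21) and Rasgef1a (5.01), with adjusted p between 6.6e-05 and 0.00014. Col20a1 was among those still rising after 2 h, with levels of -4.10 and -4.22 on the untreated arrays, -0.27 and -0.40 at 2 h and 1.36 and 1.30 at 4 h. A further 190 named genes that rose were not well above background on either untreated array and were so on both 4 h arrays. For these the fold is a lower bound, set by the dimmest signal well above background on each untreated array, and 100 of them reached at least 4-fold. The 190 were picked for this pattern and entered the test through the treated arrays. Their adjusted p is therefore not separate support for the rise. Gtf2a1l, a germ cell form of a general transcription factor subunit, was at least 55.4-fold higher (adjusted p = 0.00014), villin (Vil1), an actin bundler of brush borders, at least 40.4-fold (0.0003), and Ak7, an adenylate kinase of cilia, at least 26.9-fold (6.8e-05). Of the 190, 172 also passed in the 2 h comparison, which uses the same untreated arrays.

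Several of these genes lie just downstream of another gene on the same strand. Positions and strands were taken from RefSeq (GRCm38.p6) for 11180 genes tested, of which 10071 were well above background on all 4 arrays compared. Of these 10071, 98 rose at least 4-fold, and 41 of the 98 (41.8%) began within 5 kb after the end of the nearest upstream gene of the same strand, against 15.3% of the 10071 and 12.1% of 206 that fell at least 2-fold. The median gap of the 98 was 7867 bases and that of the 10071 was 36195 bases. Of 269 genes that rose and were not well above background in untreated cells on any probe, which entered the test through the treated arrays, 18.2% began within 5 kb. Of the genes with large rises named above, Col20a1 starts 796 bases after Arfgap1, Gzmm 621 after Cdc34, Ak7 799 after Gskip and Gtf2a1l 3227 after Gm38460. Lman1l starts 5871 after Csk, Amhr2 8597 after Sp1, Vil1 12098 after Ctdsp1 and Rasgef1a 85882 after Hnrnpf, with no value for Slc5a2. Of the other genes ranked for the largest rises or lower bounds, Nek5 starts 2864 after Nek3, Potegl 5487 after Yme1l1 and Dok7 8109 after Hgfac. Amy1 starts 27316 after Rnpc3, Plb1 74850 after Fosl2 and Robo3 111056 after Nrgn, and Endou, Ankk1 and Ampd1 have no value. Ak7, Gtf2a1l, Vil1, Nek5 and Potegl were not well above background in untreated cells and are not among the 98. Over all 11180, the share of genes that rose at least 2-fold fell with the gap, from 11.5% under 1 kb through 9.51% at 1 to 5 kb and 7.02% at 5 to 20 kb to 5.14% above 20 kb, and over the 10071 from 8.20% through 6.16% and 4.03% to 2.73%. Where the upstream gene was itself detected and tested these shares were 12.7%, 11.1%, 8.48% and 5.93%, and where it was not, 8.15%, 5.95%, 4.43% and 4.47%. Level moves with this: with genes split into 4 equal bins by the mean level over the 6 arrays and with the upstream gene tested, 32.4% of the dimmest bin rose at least 2-fold with a gap under 5 kb and 22% with a longer one, 12.4% and 4.42% in the next bin, 1.41% and 1.30% in the third, and 0.32% and 0.79% in the brightest. Of 71 upstream genes tested and within 5 kb of a gene that rose at least 4-fold, 26 rose, 12 fell and 33 did not pass, with a median change of 0.13, and of 1183 upstream genes within 5 kb of any gene 297 rose, 231 fell and 655 did not pass, with a median of 0.04. These shares are descriptions and were not tested.

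**Figure D5:**
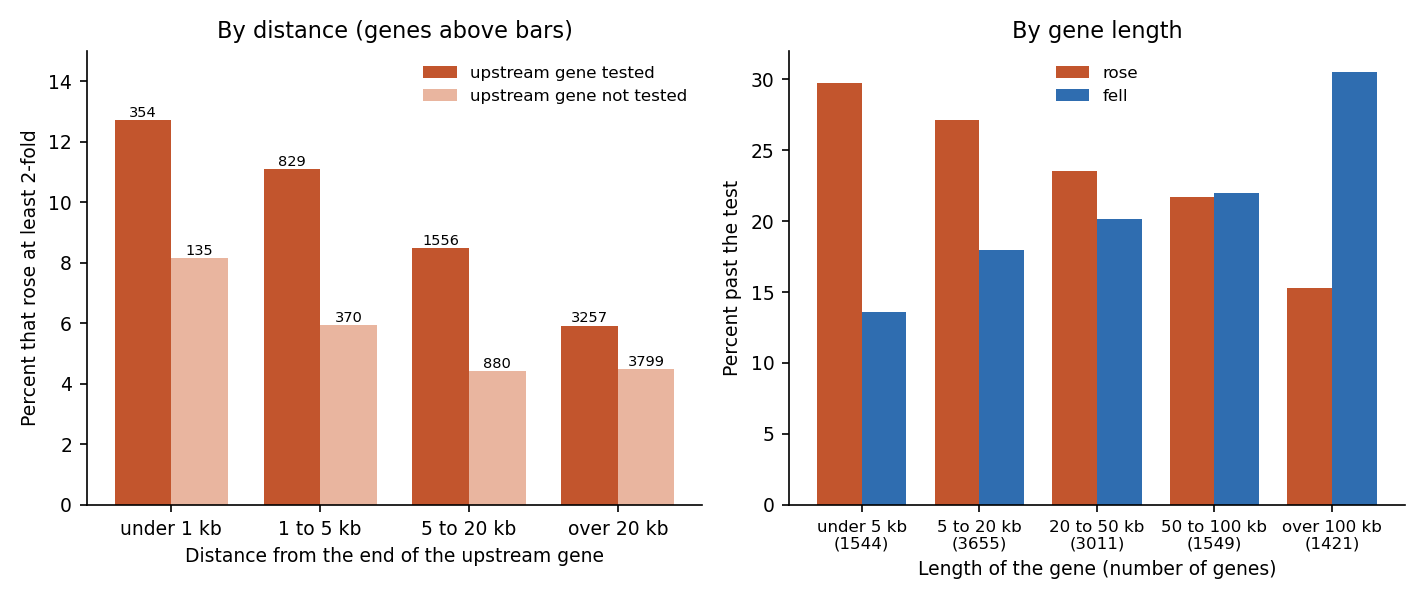
Left, percent of tested genes that rose at least 2-fold at 4 h by the distance from the end of the nearest upstream gene of the same strand, for genes whose upstream gene was tested or not. Right, percent of tested genes that rose and that fell (adjusted p under 0.05) by the length of the gene from start to end. The rising share is highest at short distance and in short genes, and the falling share in genes over 100 kb.

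The largest falls among genes with a symbol and well above background on all 4 arrays compared were led by Sapcd2, a regulator of spindle orientation, with levels of 1.55 and 1.39 on the untreated arrays, 0.28 and 0.13 at 2 h and -0.70 and -0.88 at 4 h and a change of -2.25 ± 0.11 (adjusted p = 0.00052). Next were the mismatch repair gene Pms1 (-2.17), Soga1 (-2.14, with -0.76 on another probe), the nesprin gene Syne3 (-2.09) and the kinesin Kif14 (-1.91), with adjusted p between 0.00027 and 0.0019. The nuclear long noncoding RNA Neat1, the scaffold of paraspeckles, stood at 3.99 and 3.88 on the untreated arrays, 2.07 and 1.94 at 2 h and 2.07 and 1.92 at 4 h. It changed by -1.94 ± 0.09 (adjusted p = 0.0005) and was level between 2 h and 4 h (0.00 ± 0.09 (adjusted p = 0.98)), while its neighbour Malat1 gave 0.07 ± 0.20 (adjusted p = 0.82). In the other direction 117 named genes that fell were well above background on both untreated arrays and on neither 4 h array. Of these 93 had a lower bound above 1-fold and 4 reached at least 4-fold, Xist among them. Falls were commoner in long genes: of genes longer than 100 kb from start to end 30.5% fell and 15.3% rose, and of genes under 5 kb 13.6% fell and 29.7% rose. Over the genes well above background on all 4 arrays these were 31.4% and 15.1%, and 14.5% and 29.7%.

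Against 2 h, most zinc finger genes named by Zfp and a number were higher at 4 h. Of 300 tested genes named Zfp, 184 were higher at 4 h than at 2 h and 12 lower, with a median difference of 0.58. Against untreated cells their median was -0.41 at 2 h and 0.16 at 4 h, the latter turning to -0.01 with median centring, -0.10 without scaling and -0.12 with spike-in scaling, and 104 were above and 27 below untreated cells at 4 h. Most of these proteins are DNA-binding repressors. Zfp874a stood at -1.24 and -1.10 on the untreated arrays, 0.07 and 0.17 at 2 h and 0.81 and 0.82 at 4 h, rising at each time, with a change of 1.98 ± 0.08 (adjusted p = 0.00035). Zfp462 stood at 0.79 and 0.80 on the untreated arrays, -0.45 and -0.46 at 2 h and -0.11 and -0.13 at 4 h, so that it fell by 2 h and came back in part, ending at -0.92 ± 0.05 (adjusted p = 0.00069), although another of its probes gave 0.15. Over all genes that rose against untreated cells, 1068 were also higher than at 2 h, 2733 did not pass against 2 h and 446 were lower. Of those that fell, 1665 were lower than at 2 h, 1231 did not pass and 275 were higher.

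The largest steps between 2 h and 4 h ran in both directions. Svop, a synaptic vesicle protein gene, stood at -3.79 and -4.05 on the untreated arrays, -2.38 and -2.54 at 2 h and 0.15 and -0.09 at 4 h, a step of 2.49 ± 0.14 (adjusted p = 0.0019). Inka2, an inhibitor of the kinase Pak4, was flat to 2 h and then rose, with levels of -2.16 and -1.99 on the untreated arrays, -1.93 and -2.12 at 2 h and 0.07 and 0.23 at 4 h and a step of 2.18 ± 0.11 (adjusted p = 0.0018). Lipt1, a lipoyltransferase, stood at -2.35 and -2.31 on the untreated arrays, -4.52 and -4.73 at 2 h and -2.44 and -2.43 at 4 h. It fell and returned, so that its step was 2.18 ± 0.09 (adjusted p = 0.0017) and its change against untreated cells -0.11 ± 0.09 (adjusted p = 0.36). Trim13, an ER-anchored ubiquitin ligase, had a step of 2.14 ± 0.07 (adjusted p = 0.0017) and was still below untreated cells at 4 h, at -0.31 ± 0.07 (adjusted p = 0.022). Downward, the stathmin gene Stmn4 stood at -1.63 and -1.54 on the untreated arrays, 3.15 and 3.06 at 2 h and 0.85 and 0.81 at 4 h. It fell back by -2.27 ± 0.07 (adjusted p = 0.0017) and remained above untreated cells, at 2.42 ± 0.07 (adjusted p = 0.0002).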

How the data were processed

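Total RNA from the 6 MEF samples was labelled with Cy3 and hybridised to 1 array each of the mouse design Agilent-014868, scanned on a G2505B and read with Feature Extraction 9.5.3.1 (protocol GE1-v5_95_Feb07), per the file headers. The deposited intensities are the processed signal, from which the software had taken a fitted additive and multiplicative spatial trend within each array, and the raw spot and local background intensities. The deposited series table matched the processed signal to within rounding. Each array's processed signal was taken as log2, its 75th percentile subtracted, control and outlier spots left out, and spots of 1 probe averaged. Probes were named through the RefSeq accessions and symbols that the array's annotation shares with the RefSeq gene table, and otherwise by the array's own name (27670 names). The brightest probe stood for a gene, and genes entered the test if some group had both of its arrays well above background. Changes were tested with limma 3.58.1 (R 4.3.3, lmFit and eBayes) over all 6 arrays without a block, with Benjamini-Hochberg adjustment, after the code was tested on simulated data. The number of arrays, 2 a group, limits the precision. Replicate numbers equal slides. Same-numbered arrays correlated at r = 0.19 between untreated and 4 h in their deviations from the group means, which 2 pairs cannot settle.

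The gene lists and the rule for naming genes (largest changes, largest members of each list, and a short set of stress genes) were chosen with earlier results of these data known. Genes named outside that rule were chosen after their values were seen: Trp53, Ppm1d, Ccng1, Trp53inp1, Fas, Bbc3, Bax, Nfe2l2, Keap1, Gclc, Prdx1, Cat, Sod1, Hspe1, Hspd1, Hsph1, Jun, Junb, Dusp1, Dusp4, Dusp6, Hbegf, Il6, Aurka, Ccnb1, Cdk1, Pcna, Brca1, Malat1, Ddx3y, Eif2s3y and Kdm5d. Alternatives were quantile normalization, median centring, no scaling, spike-in scaling, normexp background correction with offset 50, the series table, other probe filters and summaries, only the arrays compared, the slide as a block, other eBayes settings, a stricter threshold, each array left out, and, chosen after seeing the data, a 2-fold minimum. Gene positions were also described over the genes well above background on all 4 arrays compared, likewise chosen after seeing the data.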

Additional observations from a re-analysis of the deposited data

Results flagged for a closer look

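Of the 133 genes named with values, 75 had a change at 4 h that differed from the change at 2 h (limma, adjusted p under 0.05 for 4 h against 2 h), 33 upwards and 42 downwards. Both changes share the untreated arrays, so the values given are 4 h minus 2 h, on the log2 scale. Among stress targets they were 0.43 for Cdkn1a, 0.75 for Ppm1d, 0.39 for Ccng1, 0.92 for Trp53inp1, 0.59 for Pmaip1, 0.95 for Fas, 0.77 for Osgin1, 0.49 for Hspa1a, 0.24 for Hspb8, 0.33 for Gabarapl1, 0.47 for Chac1 and 0.40 for Herpud1, and -0.82 for Tigar, -0.36 for Abcc4 and -0.36 for Fech. Early genes and feedback genes gave -2.19 for Atf3, -2.16 for Fosb, -2.11 for Nr4a1, -2.89 for Egr4, -0.72 for Jun, -0.42 for Junb, -1.15 for Hbegf, -0.38 for Dusp1, -0.66 for Dusp4, -0.60 for Dusp6 and -0.48 for Il6, against 0.46 for Fosl1 and 1.12 for Spry1. Interferon and NF-kB genes gave 1.59 for Rsad2, 1.63 for Mx2, 1.03 for Cxcl10, 0.36 for Isg20, 0.79 for Icam1 and 0.29 for Nfkbia, against -0.42 for Vcam1, and the survival gene Bcl2 gave -1.23. Cell cycle and repair genes gave -1.15 for Plk1, -0.89 for Mki67, -0.66 for Aurka, -0.58 for Ccnb1, -0.29 for Cdk1, -0.73 for Ccna2, -0.35 for Ccne1, -0.54 for Pold1, -0.57 for Gmnn, -1.54 for Brca2, -0.35 for Brca1, -1.14 for Rad54l, -1.46 for Neil3, -0.45 for Parp2, -1.65 for Kif14, -0.99 for Sapcd2 and -1.22 for Pms1, against 1.07 for Ccnf, 0.67 for Msh6 and 1.06 for Lig4. Other genes named for their list or their change gave -1.73 for Syne3, -0.34 for Soga1, -0.52 for Adamts5, -0.29 for Sqle and -0.30 for Ankrd1, against 1.66 for Txnip, 0.79 for Id4, 0.34 for Zfp462 and 2.14 for Trim13. Genes named for a large rise or a large step from 2 h gave 0.61 for Lman1l, 1.66 for Col20a1, 2.49 for Svop, 2.18 for Inka2 and 0.69 for Zfp874a, against -0.44 for Amhr2, -0.71 for Rasgef1a, -0.90 for Vil1 and -2.27 for Stmn4, and Lipt1 gave 2.18.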

How the results depend on the processing

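Against untreated cells rises numbered 2176 with median centring, 1770 without scaling, 1613 with spike-in scaling, 1522 with normexp and the 75th percentile, 2645 with no filter on dim probes (27670 tested), 2119 at an adjusted p under 0.01 and 1144 with a 2-fold minimum, and falls numbered 5459 without scaling, 5570 with spike-in scaling, 859 with normexp and the 75th percentile, 1908 with no filter, 1600 at 0.01 and 457 with a 2-fold minimum. Against 2 h, genes higher at 4 h numbered 772 with normexp and the 75th percentile, 1410 with no filter, 1219 at 0.01 and 591 with a 2-fold minimum, and genes lower at 4 h 1771 with median centring, 1587 without scaling, 985 with spike-in scaling, 241 with normexp and the 75th percentile, 1076 with no filter, 885 at 0.01 and 400 with a 2-fold minimum. The cause was not tested, except that stricter thresholds pass fewer genes by construction. Leaving out 1 array in turn gave 2410 to 3468 rises and 1840 to 2664 falls against untreated cells, and 1315 to 2009 higher and 1044 to 2178 lower genes against 2 h. Where a group was left with 1 array, that array was assumed to vary like the other groups.

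With the slide (replicate number) as a replicate block 5358 genes rose and 3937 fell against untreated cells, and 2854 were higher and 4014 lower against 2 h. The median change over all genes was 0.069 within slide 1 and 0.063 within slide 2, and 4243 of the 4247 rises and 3169 of the 3171 falls had their sign in both slides. The rest lacked the value of an array. Among the named genes the block changed the call of Bax and Cat alone.

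Sign turns were counted only for named genes that passed the test in the main fit or in the alternative. Turns of genes that passed in neither were not counted. Among the genes counted, none turned sign when 1 array was left out, and those listed above lost the test. Under the other alternatives 4 of the genes counted turned sign and none passed there. Ddx3y changed by -0.015 without scaling and -0.044 with spike-in scaling, and Hbegf by -0.049 and -0.077. With normexp and the 75th percentile Tigar changed by 0.0022 and Egr4 by 0.25. Normexp with the 75th percentile lost 35 of the named calls, spike-in scaling 24 and quantile normalization 6.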
